A study of Mus musculus with 14 samples.

Results

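The comparison described here is that of the cerebellum between knockout and wild-type mice: 3 knockout and 3 wild-type libraries, chosen by their titles, out of 14 libraries in the series. The knockout mice are labelled CARIP-/- and the controls wild type, and both are of the strain C57BL/6. The labels name no treatment and no age, and do not say how the allele was made, whether it removes the gene from every tissue, or whether a library is 1 animal or a pool. The other 8 libraries are cerebral cortex and hippocampus, 2 of each genotype, and enter only where the cerebellar difference is set against theirs. No entry of the gene annotation used carries the name CARIP, so the transcript of the targeted gene could not be read and the genotype labels were not checked against it.

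The cerebellum is built of very many small glutamatergic granule cells, of Purkinje cells, whose axons are its only output to the deep nuclei, and of inhibitory interneurons of the molecular and granular layers. Bergmann glia, the radial astrocytes of the cerebellar cortex, wrap the Purkinje cell synapses, take up glutamate and buffer potassium, and oligodendrocytes myelinate the tracts of its white matter. The cerebellum is attached to the brainstem by its peduncles and lies against the choroid plexus of the fourth ventricle and the meninges, so a dissected cerebellum can carry more or less of each. The question of the comparison is which transcripts differ between the genotypes in this tissue.

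The 6 cerebellar libraries held 20.1 to 28.5 M counted reads, and mitochondrial transcripts took 1.92% to 3.14% of them. Levels are CPM, that is reads per M reads of the scaled library total, and a gene is said to have passed where its adjusted p was under 0.05. The libraries are numbered 1 to 3 within each genotype, and the labels give neither the meaning of the number nor a statement that the libraries come from separate mice. The p-values therefore measure only the spread between these libraries. In bulk tissue, fewer cells of a type and less RNA per cell cannot be told apart.

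The markers of the labelled tissue were present in every library. The 16 granule cell markers summed to 5780 to 6970 CPM in the knockout libraries and to 5560 to 8790 in wild type, and the 13 Purkinje cell markers to 5550 to 6640 and 4560 to 7530. Neither list separated the genotypes. The libraries differed far more in what came with the cerebellum. The 11 Hox genes of the hindbrain list, which mark tissue behind the cerebellum, had 735 reads in knockout library 2 and 751 in wild-type library 2, and 3 to 15 reads in each of the other 4. Their summed level was 25.8 and 27.9 CPM in these libraries and at most 0.722 in the others. The 6 markers of neurofilament-rich projection neurons ran the same way, with 1320 and 1720 CPM in the libraries numbered 2 and 401 to 539 elsewhere. The libraries numbered 2 thus stood apart in both genotypes, and among genes at a mean of at least 1 log2 CPM 69 were at least 3-fold higher in both of them than in any other library. They included Slc5a7, the choline transporter of cholinergic neurons, Glra1, a glycine receptor subunit, and Dbh, dopamine beta-hydroxylase (chosen after their values were seen).

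Oligodendrocyte markers followed the same 2 libraries but differed within the pair. The 15 markers summed to 2700, 5130 and 2650 CPM in knockout libraries 1 to 3 and to 3810, 10500 and 2940 in wild type, so wild-type library 2 had the highest level of all. The choroid plexus list set another library apart. Its 12 markers summed to 143 CPM in wild-type library 1 and to 1370 to 2220 in the other 5. A principal component analysis of the 6 libraries placed the libraries numbered 2 alone at one end of the first component (59.9% of the variance) and wild-type library 1 alone at one end of the second (18.6%).

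**Figure D1:**
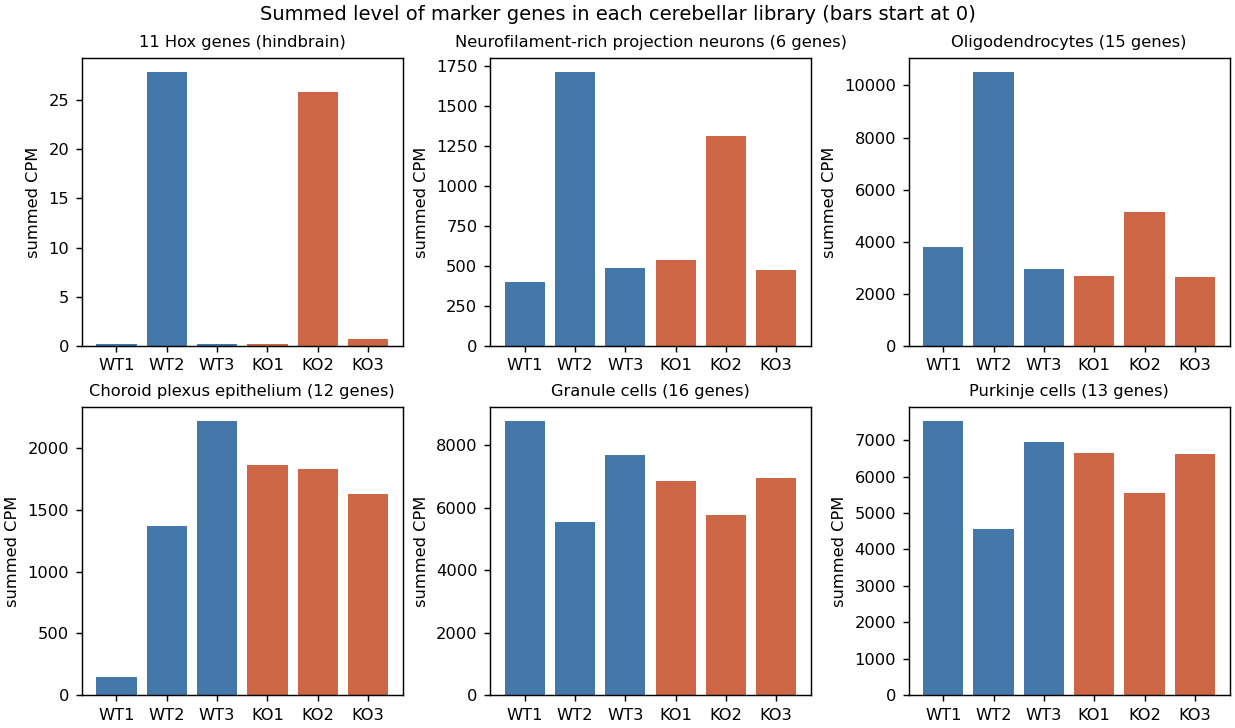
Summed CPM of 6 marker lists in each cerebellar library (blue, wild type; orange, knockout; bars start at 0). Hox genes, neurofilament-rich neurons and oligodendrocytes are highest in the libraries numbered 2 of both genotypes. Choroid plexus markers are far lower in wild-type library 1 (143 CPM, of which Enpp2 alone was 102) than in any other library (1370 CPM or more). Granule and Purkinje cell markers overlap between genotypes.

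Without the numbers in the model no gene passed: 0 of 21588 genes tested (0% called) had an adjusted p under 0.05 by edgeR's quasi-likelihood test with Benjamini-Hochberg adjustment. At an unadjusted p under 0.05 there were 800 genes (3.71%), 368 higher and 432 lower in the knockout, where 1079 would be there by chance. Of the other tools run without the numbers, DESeq2 called 21 genes, 6 higher and 15 lower, and limma with library quality weights called 3. Leaving out 1 library at a time gave 0 calls in edgeR except without wild-type library 2, where Col1a1 and Ednrb passed, and without wild-type library 3, where 4 genes outside the 58 did. Log2 fold changes were below 0 for 52.7% of the genes tested, with a median of -0.014. The genotypes did not overlap, with all 3 libraries of one beyond all 3 of the other, for 9.39% of the genes tested: the knockout was above for 4.82% and below for 4.57%.

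With the number as a block, which compares each knockout library with the wild-type library of the same number, 58 genes passed, 0.269% of those tested, and 9.82% of the genes had an unadjusted p under 0.05. Of the 58 genes 9 were higher in the knockout (0.0417% of the genes tested) and 49 lower (0.227%). These shares are the background for the counts below of list members that passed, rose or fell. The fitted spread was smaller in this model, with a biological coefficient of variation of 12.7% against 22.2% without the block, on 2 residual degrees of freedom in place of 4. All 58 had the same sign in the model without the block, which rests on the same libraries, and the genotypes did not overlap for 41 of them, 8 higher and 33 lower. The genes that passed were well expressed, with a median wild-type level of 57.9 CPM where that of all genes tested was 9.84. The changes were mostly moderate: the median log2 fold change was -0.64 for the genes that fell and 0.68 for those that rose, and 6 of the 49 fell at least 2-fold.

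The call of these genes rests on the block, and the libraries numbered 2 weigh in it. Without that pair 17 genes passed with the block, 13 of them among the 58: Lcn2 and Fam107a on the higher side and Ednrb, Col1a1, Col1a2, Fads2, Vim, Aqp4, S1pr1, Per1, Calb2, Gja1 and Gm27199 on the lower. Without both libraries numbered 2 and without the block 8 genes passed, of which Aqp4, Col1a1, Ednrb, Fads2, Gja1 and Vim are among the 58. Of the 58 genes 10 passed under every blocked alternative, namely those 13 without Lcn2, Vim and Gm27199. Gm27199 passed in those that tested it, but it was below the minimum of 1 CPM in 3 libraries and DESeq2 gave it no adjusted p. For each of the 58 the adjusted p reached 1 in at least 1 of the alternatives run. Every gene below that is said to have risen or fallen passed in edgeR's quasi-likelihood test with the block, at an adjusted p between 0.00059 and 0.048.

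**Figure D2:**
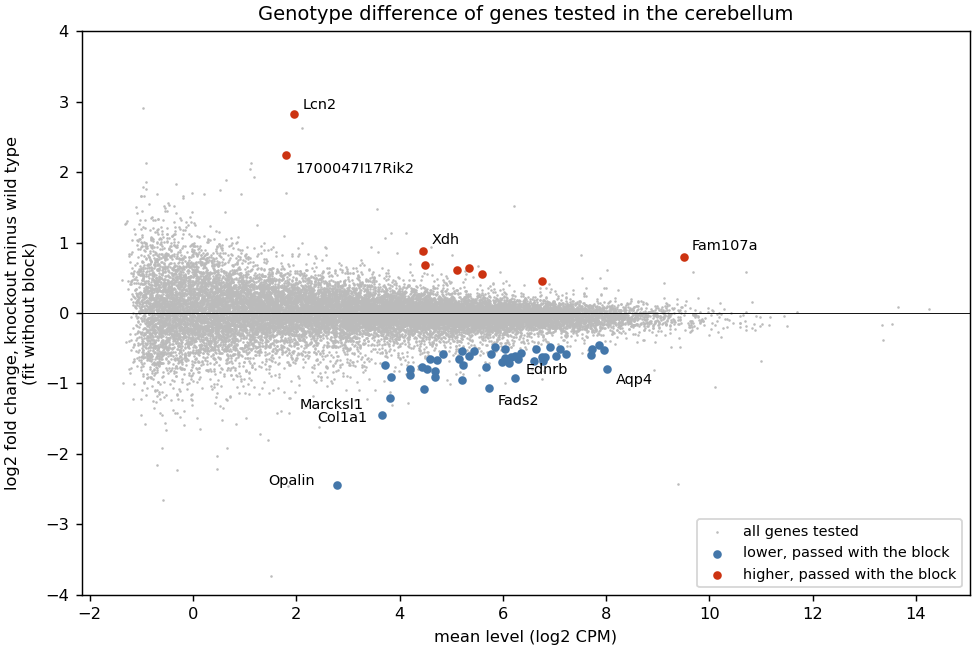
Log2 fold change of the knockout against wild type (fit without block) against the mean level (log2 CPM) for the genes tested in the cerebellum; Gm27199, with 0 reads in the knockout, and Gm15446 lie below the axis range and are not drawn. Blue points are genes that fell and red points genes that rose with the replicate block; most lie within 1 log2 unit of 0.

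Among the genes that fell were the membrane receptors Ednrb and S1pr1. Ednrb (chromosome 14, 103814625 to 103844402), the endothelin B receptor, through which astrocytes including Bergmann glia respond to endothelin, was at 45.1, 56.5 and 54.1 CPM in knockout libraries 1 to 3 and at 98.3, 98.7 and 98.8 in wild type. The wild-type libraries were almost identical, and every knockout library lay far below them, including those numbered 2. The fold change was -0.93 ± 0.09 on the log2 scale (SE, n = 3 each; edgeR adjusted p = 0.00097 with the block and 0.19 without it, 6.3e-22 to 1 over all alternatives). Its log2 fold change stayed between -0.99 and -0.83 in all of these alternatives. S1pr1 (chromosome 3, 115710433 to 115715072), a receptor for sphingosine 1-phosphate, was at 78.4, 98.5 and 88.3 CPM in the knockout and at 124, 145 and 140 in wild type, and fell by 0.62 ± 0.07. The genotypes did not overlap.

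Among the 19 genes of the list of glial transport and potassium buffering 4 fell, Ednrb, Aqp4, Gja1 and Slc7a10, where 0.227% of all genes tested fell. Of the list 18 had a log2 fold change below 0 with a median of -0.25, where 52.7% of all genes tested were below 0. This list and the others were chosen with earlier results of these data known, so the number of members that fell is a description only. Aqp4, the water channel of astrocyte end-feet, was at 161, 215 and 190 CPM in the knockout and at 329, 370 and 286 in wild type, without overlap. Slc7a10, a transporter of small neutral amino acids that include D-serine, was at 19.2, 31.1 and 18.7 CPM against 28.6, 47.0 and 27.6. Knockout library 2 lay above wild-type libraries 1 and 3, so the genotypes overlapped, while the log2 difference within each number was -0.57, -0.59 and -0.55. For Gja1, the gap junction protein connexin 43, the differences within the numbers were -0.60, -0.59 and -0.55, and the genotypes did not overlap. When wild-type library 2 was left out the list's median was -0.07.

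Slc13a3, a transporter that takes up dicarboxylates such as succinate and N-acetylaspartate, fell by 0.87 ± 0.12, from 22.7, 27.0 and 21.4 CPM in wild type to 11.985, 13.7 and 13.003 in the knockout. It was also among the smallest p-values without the block, where it did not pass (edgeR adjusted p = 0.80, 3.7e-08 to 1 over all alternatives). Gjc3, a connexin of myelinating glia, fell by 0.74 ± 0.11, and Tril, a Toll-like receptor partner found in astrocytes, by 0.52 ± 0.09 (both chosen after their values were seen). Of the 14 astrocyte markers 3 fell, Aqp4, Gja1 and Gfap, where 0.227% of all genes tested fell. In the list 11 were below 0 with a median of -0.20. The median was -0.04 without wild-type library 2 and -0.37 without knockout library 2. The other 3 markers were above 0. The knockout was below wild type without overlap for 4 markers and above for 1, Sox9 (chosen after its values were seen), together 35.7% beside 9.39% of all genes tested. Gfap, the intermediate filament of astrocytes, was at 66.8, 116 and 69.0 CPM in the knockout and at 95.9, 212 and 99.0 in wild type, so that knockout library 2 exceeded wild-type libraries 1 and 3.

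Of the 12 Bergmann glia markers 1 fell. This was Vim, the intermediate filament vimentin, at 52.3, 53.9 and 52.6 CPM in the knockout and at 85.4, 70.3 and 105 in wild type. The knockout libraries were nearly equal and lay below all of wild type, with a log2 fold change of -0.69 ± 0.11. The median of the list was -0.18, and it lay between -0.22 and -0.14 when any 1 library was left out. The oligodendrocyte sums given above moved with these genes in part, being highest in wild-type library 2, which was also the highest library for 33 of the 49 genes that fell. For Ednrb wild-type library 2 was level with the other wild-type libraries, and for Vim it was the lowest of them. These 2 genes are examples from the 49. The part of oligodendrocyte content in the fall of any of these genes was not tested.

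Tubb2b and Tuba1a, which encode tubulins of the microtubules, were also among the genes that fell. Tubb2b (chromosome 13, 34126748 to 34130466), a beta-tubulin of immature neurons and glia, was at 24.3, 32.0 and 28.1 CPM in the knockout and at 39.3, 54.2 and 46.8 in wild type. The genotypes did not overlap, and the fold change was -0.73 ± 0.09. Tuba1a, an alpha-tubulin of the same kind, fell by 0.49 ± 0.08 from a higher level, with 154, 211 and 156 CPM against 205, 340 and 200. Here knockout library 2 lay above wild-type libraries 1 and 3.

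The MARCKS proteins tie actin to the plasma membrane and are released from it by protein kinase C and calmodulin. Marcks (chromosome 10, 37133375 to 37138920) was at 44.9, 52.1 and 47.1 CPM in the knockout and at 85.0, 84.6 and 64.6 in wild type, and fell by 0.69 ± 0.10. Its relative Marcksl1 was at 7.43, 11.4 and 6.65 CPM against 15.95, 30.5 and 12.3, and fell by 1.15 ± 0.15. Neither overlapped between genotypes, although for Marcksl1 knockout library 2 came close to wild-type library 3. Marcksl1 and Tubb2b were the members that fell among 11 tested immature neuron genes, whose median of -0.25 turned to 0.14 without wild-type library 2.

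Ephb1, Unc5b and Ntng1, which act in axon and cell guidance, fell as well. Ephb1, a receptor tyrosine kinase for ephrin-B ligands, was at 53.6, 62.7 and 51.7 CPM in the knockout and at 86.3, 101 and 71.7 in wild type, a fold change of -0.62 ± 0.08. Unc5b, a netrin receptor, was at 102, 90.9 and 108 CPM against 139, 130 and 152. Ntng1, a membrane-anchored netrin-G, was at 29.1, 45.2 and 32.0 CPM against 48.4, 63.8 and 42.2. Ephb1 and Unc5b did not overlap between genotypes and Ntng1 did. Unc5b is one of the genes in which wild-type library 2 was the lowest wild-type library, and it fell by 0.49 ± 0.07 (Unc5b and Ntng1 chosen after their values were seen).

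Several genes that fell encode adhesion molecules or secreted and matrix proteins, named here after their values were seen unless said otherwise. Ptn, the heparin-binding growth factor pleiotrophin, fell by 0.64 ± 0.09, and Tnc, the matrix protein tenascin C that Bergmann glia secrete during development, by 0.65 ± 0.11. Adamts20, a secreted metalloprotease, fell by 0.73 ± 0.13. Sh3pxd2b, which the naming rule chose and which encodes a scaffold protein of podosomes, fell by 0.84 ± 0.11, from 26.4, 44.6 and 27.5 CPM in wild type to 12.9, 25.4 and 17.1. Cadm4, an adhesion molecule of glia, and Igsf21, which is involved in inhibitory synapses, fell by 0.50 ± 0.08 and 0.60 ± 0.09. In all of these but Adamts20 the genotypes did not overlap.

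Both chains of type I collagen fell. Col1a1 (chromosome 11, 94936224 to 94953042), the alpha-1 chain of type I collagen, was at 6.30, 7.73 and 6.26 CPM in the knockout and at 20.4, 16.2 and 18.6 in wild type, and fell by 1.44 ± 0.16 (edgeR adjusted p = 0.0037 with the block and 0.19 without it, 2.1e-16 to 1 over all alternatives). Col1a2, the partner chain, was at 17.9, 20.8 and 14.9 CPM against 38.2, 36.2 and 26.7, and fell by 0.91 ± 0.11. All knockout libraries lay below all wild-type libraries for both genes. These were the 2 of 13 meningeal fibroblast markers that passed, where 0.269% of all genes tested did. Of the 13 markers 10 were below 0 with a median of -0.39. The knockout was below wild type without overlap for 5 of the 13, or 38.5%, beside 4.57% of all genes tested. The other 3 of the 13 were above 0. The summed level of the list was 155 to 191 CPM in the knockout and 214 to 244 in wild type. The counts and the sum include both collagens, so they are not separate from the fall of these genes. The part of meninges in the fall of the collagens was not tested.

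**Figure D3:**
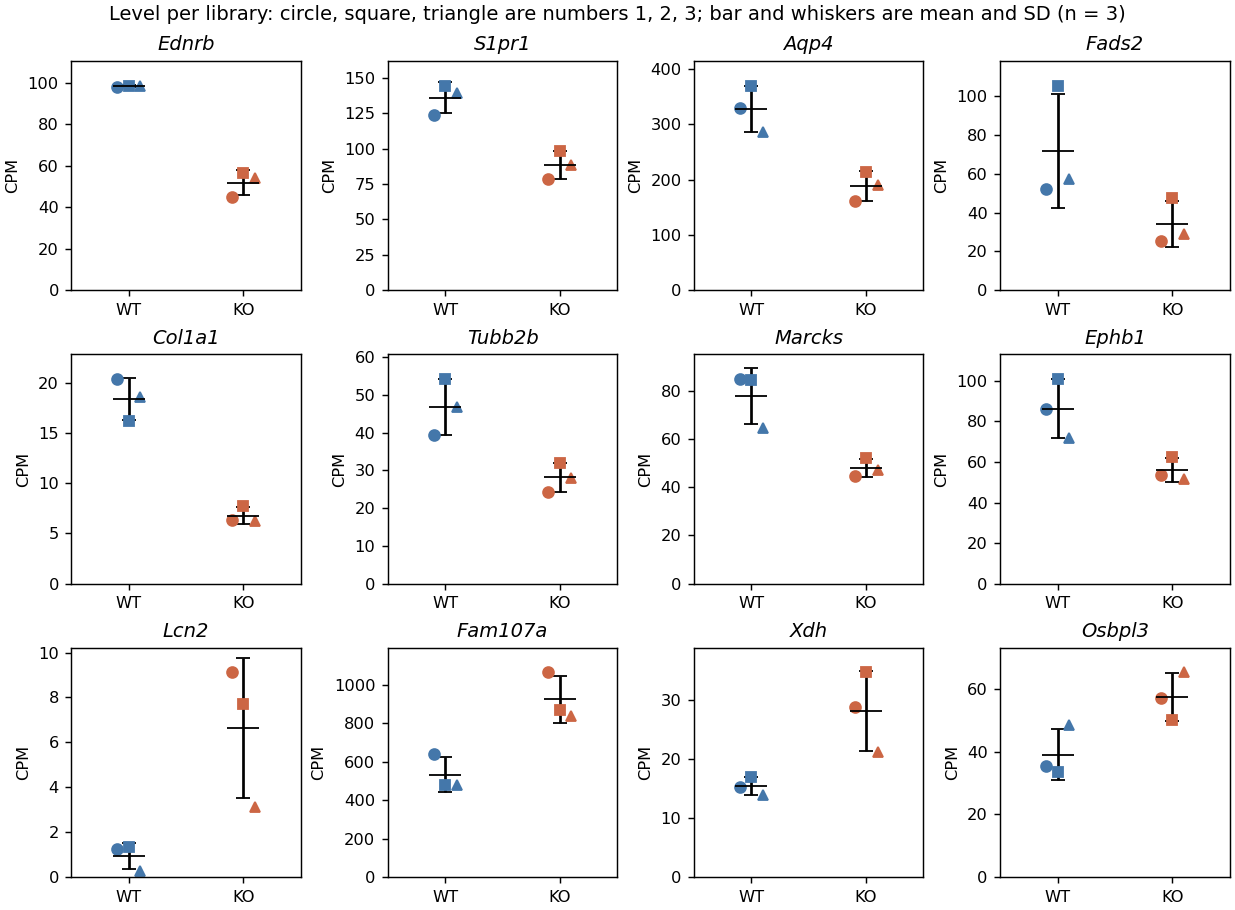
CPM of 12 genes in each library (circle, square and triangle for numbers 1, 2 and 3; bar and whiskers, mean and SD, n = 3 per genotype; each axis starts at 0). The genes that fell lie below wild type in each number, with Ednrb at 45.1 to 56.5 CPM in the knockout and 98.3 to 98.8 in wild type, and Lcn2, Fam107a, Xdh and Osbpl3 lie above.

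Of the 6 desaturases in the list of fatty acid synthesis, enzymes that put double bonds into fatty acids, 3 fell. Fads2 (chromosome 19, 10062765 to 10101746), the delta-6 desaturase of polyunsaturated fatty acids, was at 25.4, 47.8 and 29.0 CPM in the knockout and at 52.2, 105 and 57.1 in wild type. Each knockout library had about the same share of the wild-type library of its number, with log2 differences of -1.03, -1.13 and -0.96. Fads1, the delta-5 desaturase, lies on the same chromosome (10182888 to 10196877) and fell by 0.59 ± 0.08, with differences of -0.58, -0.69 and -0.50. Fads3 and Fads6, of the same family (chosen after their values were seen), had log2 fold changes of 0.22 and 0.09 without the block and did not pass with it (edgeR adjusted p = 0.59 and 0.78), and neither did the delta-9 desaturase Scd2, at -0.31 with the block (edgeR adjusted p = 0.27). Of the 18 genes of the list 3 fell, Fads2, Fads1 and the delta-9 desaturase Scd1, where 0.227% of all genes tested fell. In the list 12 were below 0 with a median of -0.12. Neither Fads2 nor Fads1 overlapped between genotypes, and Scd1 did.

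Sterol genes were nearly all on the lower side. Of 22 genes of sterol synthesis and uptake 21 were below 0, with a median of -0.44, and 1 passed: Dhcr7, the last enzyme of cholesterol synthesis, fell by 0.65 ± 0.11, from 28.1, 38.1 and 22.3 CPM in wild type to 16.2, 23.9 and 16.1. The knockout was below wild type without overlap for 4 of the 22 (18.2%), beside 4.57% of all genes tested. The median was -0.19 without wild-type library 2, and the summed level of the list was 592 to 783 CPM in the knockout and 714 to 1260 in wild type. Like the oligodendrocyte sums it was highest in wild-type library 2, and their part in the result was not tested.

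Of the 15 oligodendrocyte markers 14 were below 0 with a median of -0.67, and 1 passed. The passing gene Opalin, a membrane protein of myelinating oligodendrocytes, was at 0.940, 3.69 and 1.59 CPM in the knockout and at 8.38, 22.5 and 3.43 in wild type, and fell by 2.33 ± 0.34. It overlapped between genotypes, and so did every other marker of the list. The list's median became 0.01 when wild-type library 2 was left out. Further genes that fell are found in myelin-forming cells, namely Pllp, a proteolipid of myelin (-0.96 ± 0.15), Gsn, the actin-severing gelsolin (-0.85 ± 0.13), Padi2, which converts arginine to citrulline in myelin basic protein (-0.75 ± 0.11), and Lpar1, a receptor for lysophosphatidic acid (-0.62 ± 0.11). All 4 overlapped between genotypes and were highest in wild-type library 2 (chosen after their values were seen).

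**Figure D4:**
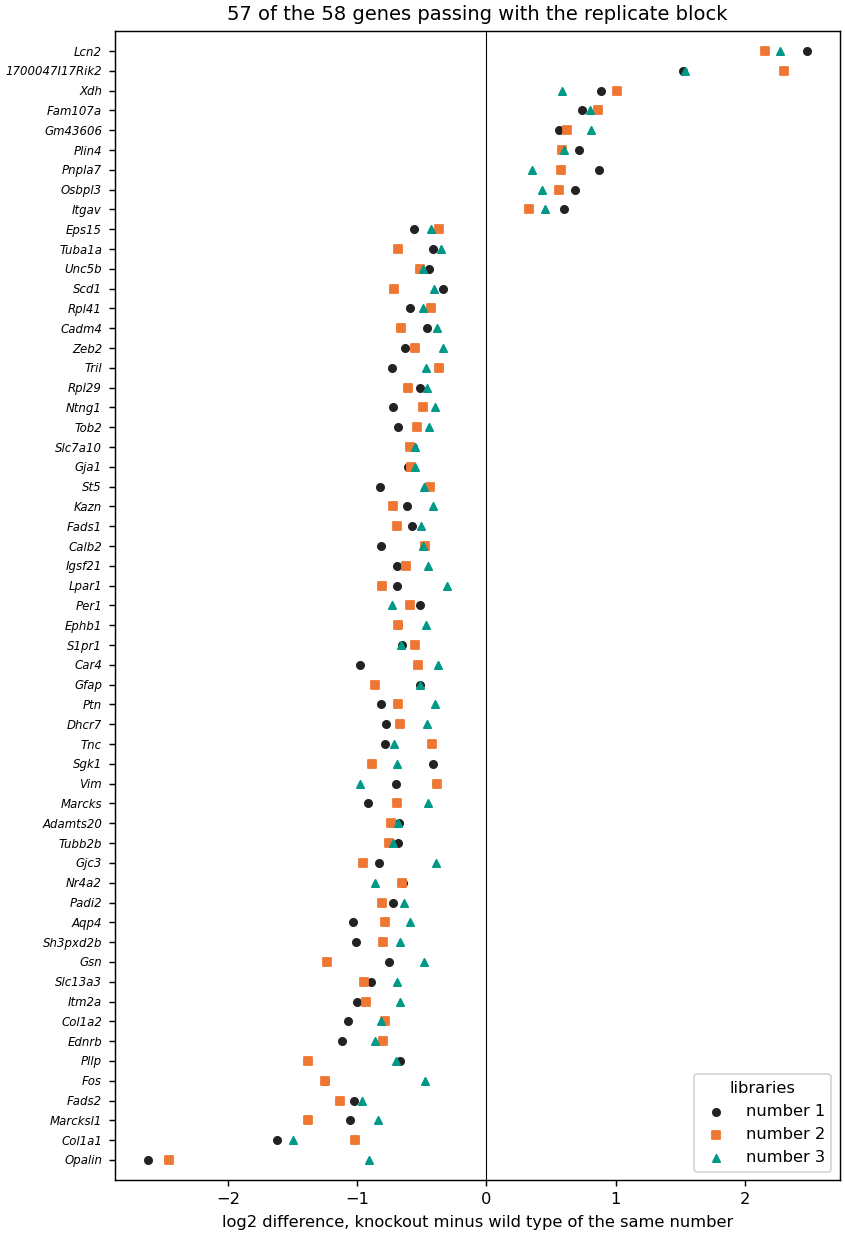
Log2 difference between knockout and wild-type library of the same number (CPM + 0.5) for 57 of the 58 genes that passed with the replicate block, ordered by fold change; Gm27199, with 0 reads in the knockout, is left out. All 3 numbers lie on the same side of 0 for every gene drawn, and the spread between numbers is small for Fads2 and Gja1 and wide for Opalin and Fos. The genes were selected by the blocked test, which favours a common sign and a small spread, so neither is separate support. Of all genes tested 14.2% were above and 16.7% below wild type in all 3 numbers.

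On the higher side Lcn2, the secreted iron-scavenging protein lipocalin 2, rose most. It was at 9.12, 7.70 and 3.13 CPM in knockout libraries 1 to 3 and at 1.22, 1.34 and 0.251 in wild type, all below the knockout. Levels differed among libraries of 1 genotype, but the log2 difference was 2.48, 2.16 and 2.27 within the numbers, and the fold change of 2.87 ± 0.26 was called in the blocked fit (edgeR adjusted p = 0.00097, and 0.35 with numbers 1 and 3 crossed between genotypes, 6.3e-22 to 1 over all alternatives). 1700047I17Rik2 (chromosome 12, 55199592 to 55217168), a protein-coding gene without a name, was at 4.04, 8.58 and 4.24 CPM against 1.08, 1.34 and 1.13, and rose by 2.19 ± 0.26. No library of one genotype reached the other in either gene.

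The others that rose were Xdh, Plin4, Pnpla7, Osbpl3, Itgav, Gm43606 and Fam107a. Xdh, which makes uric acid from xanthine, was at 28.8, 34.7 and 21.1 CPM against 15.3, 16.97 and 13.9, and rose by 0.85 ± 0.12. Plin4, a coat protein of lipid droplets, rose by 0.64 ± 0.09 with overlap between genotypes, at 48.6, 68.1 and 32.4 CPM against 29.3, 45.3 and 21.2. Pnpla7, a lysophospholipase, rose by 0.61 ± 0.11 and Osbpl3, an oxysterol-binding protein that works where the endoplasmic reticulum meets the plasma membrane, by 0.57 ± 0.09. Osbpl3 was at 57.01, 49.98 and 65.3 CPM in the knockout and at 35.2, 33.6 and 48.3 in wild type, with wild-type library 3 just under the lowest knockout library. Itgav, the integrin alpha-V chain that binds vitronectin, rose by 0.46 ± 0.08 and was the smallest of the changes upward, and Gm43606, whose status as a gene still needs experimental support in the annotation, rose by 0.68 ± 0.11. Plin4 was the 1 member that rose of 15 genes of fatty acid oxidation and PPAR targets, of which 10 were above 0 with a median of 0.18.

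Among glucocorticoid-responsive genes some rose and others fell. In response to corticosterone the glucocorticoid receptor binds a palindromic element and switches such genes on. Fam107a, an actin-binding protein whose transcript rises with stress hormones, rose by 0.80 ± 0.08: it was at 1066, 872 and 837 CPM in the knockout and at 639, 479 and 479 in wild type, without overlap. Sgk1, the serum- and glucocorticoid-induced kinase, fell by 0.67 ± 0.09, from 102, 148 and 107 CPM to 76.7, 80.0 and 66.3, also without overlap. Of the 20 genes of the list 4 passed, where 0.269% of all genes tested did. Fam107a and Plin4 were higher and Sgk1 and Per1 lower, and the median of the list was -0.07. The knockout was above wild type without overlap for 2 and below for 6, together 40% beside 9.39% of all genes tested. Among those that did not pass, Sult1a1 had a log2 fold change of 0.47 and Nfkbia and Ddit4 of -0.65 and -0.62 without the block, and Fkbp5 overlapped (chosen after their values were seen).

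Fam107a and Sgk1 are shown with the sequence before their start sites because they changed in opposite directions and were the 2 of 44 passing genes matched by symbol to RefSeq promoters that hold a glucocorticoid response element (GNACA and TGTNC with 3 bases of any kind between them) in the 250 bases before a start site. The element was searched on both strands and occurs in 0.47% of 32851 promoters of that length. The sequences are those of RefSeq on GRCm38.p6, given 5′ to 3′ on the strand of the gene up to the base before the start site, with the element in capitals: chr14:8309780-8310029, minus strand, for Fam107a, and chr10:21993640-21993889, plus strand, for Sgk1.
Fam107a: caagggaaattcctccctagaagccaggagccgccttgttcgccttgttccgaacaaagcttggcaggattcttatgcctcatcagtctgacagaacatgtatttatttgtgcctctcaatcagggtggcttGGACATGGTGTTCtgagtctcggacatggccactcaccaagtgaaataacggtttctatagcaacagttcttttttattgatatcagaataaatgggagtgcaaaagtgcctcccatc
Sgk1: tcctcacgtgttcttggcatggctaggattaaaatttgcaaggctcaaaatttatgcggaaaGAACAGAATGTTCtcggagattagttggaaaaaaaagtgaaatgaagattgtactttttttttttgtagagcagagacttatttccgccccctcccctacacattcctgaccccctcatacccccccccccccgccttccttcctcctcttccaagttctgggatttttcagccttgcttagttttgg
The element begins 118 bases before the start site shown in Fam107a and 188 bases before it in Sgk1. RefSeq lists 3 start sites for Fam107a, of which 2 hold it in this window, and 6 for Sgk1, of which 1 does. The sterol response element TCACNCCAC (1.24% of promoters) was found in 1 of the 44, Gfap, the E-box CACGTG (7.15%) in 6, among them Per1 and Dhcr7, and the cAMP response element TGACGTCA (1.79%) in 0. The counts are of genes with a match at any of their start sites, while the percentages are of single promoters. A gene with several start sites has more chances of a match, so count and percentage are not alike. A match describes these letters and not binding, and the counts were not tested.

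Per1, a repressor of the circadian clock that neuronal activity and glucocorticoids also induce, was at 84.5, 73.0 and 98.2 CPM in the knockout and at 121, 110 and 164 in wild type, and fell by 0.62 ± 0.08. It was the 1 of 17 clock genes that passed. The knockout was below wild type without overlap for 5 of the 17 and above for 1, 35.3% in all beside 9.39% of all genes tested, and the median was -0.12. Among the 20 immediate early genes, transcribed within minutes of stimulation, Fos and Nr4a2 fell, where 0.227% of all genes tested fell. Of the 20 genes 17 were below 0 and the median was -0.42. Fos was at 3.90, 8.51 and 28.1 CPM in the knockout and at 9.98, 20.9 and 39.2 in wild type. Levels within each genotype differed more than those between the genotypes, and the libraries numbered 3 were highest in both. With numbers 1 and 3 crossed neither passed (edgeR adjusted p = 0.89 for Fos and 0.87 for Nr4a2, 3.3e-10 to 1 and 7.5e-07 to 1 over all alternatives). Leaving out wild-type library 3 moved the list's median to -0.07.

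Neuronal marker and signalling lists held few genes that passed. Calb2, the calcium-binding protein calretinin of granule and unipolar brush cells, was at 159, 166 and 171 CPM in the knockout and at 281, 232 and 241 in wild type. The knockout libraries lay close together and well below wild type, and the gene fell by 0.60 ± 0.09. It was the 1 of 16 granule cell markers that passed, where 0.269% of all genes tested did, and the median of the list was -0.14. Of 13 Purkinje cell markers 0 passed, with a median of -0.05. The median of the granule cell list was 0.02 without wild-type library 1. Cerebellar inhibitory interneurons (0 of 12, median 0.01) and unipolar brush cells (0 of 4, median -0.03) gave no call with the block.

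The growth factor pathways that pattern the cerebellum gave no call with the block either. In the Sonic hedgehog pathway, by which Purkinje cells drive granule cell precursors to divide, 0 of 11 genes passed and the median was -0.07. Its transcription factor and target Gli1 was at 13.2, 12.23 and 14.4 CPM in the knockout and at 12.19, 10.8 and 11.2 in wild type, without overlap (chosen after its values were seen; edgeR adjusted p = 0.67 with the block, 0.49 to 1 over all alternatives). Notch (0 of 12, median -0.05), Wnt (0 of 14, -0.20) and BMP and TGF-beta genes (0 of 14, -0.02) gave no call, and the Wnt median turned to 0.13 and the Notch median to 0.21 without wild-type library 2.

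Receptor and channel lists had small medians and 0 members that passed with the block: AMPA and kainate receptors (9 genes, -0.11), NMDA and delta receptors (9, -0.07), metabotropic glutamate receptors (7, -0.12), GABA-A and glycine receptors (17, -0.14), calcium channels (15, -0.12), sodium channels (8, -0.06), potassium channels (30, -0.06), CaM kinases, calmodulins and calcineurin (21, -0.12) and synaptic vesicle genes (27, -0.11). Of the AMPA receptor genes Gria1, a subunit carried by Bergmann glia and Purkinje cells, had the lowest fold change, with 353, 363 and 397 CPM against 510, 441 and 504 (-0.38 ± 0.08, edgeR adjusted p = 0.098 with the block, 0.0011 to 1 over all alternatives; chosen after its values were seen). The genotypes did not overlap for it.

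Of the inflammatory lists 3 lay on the higher side. All 6 tested neutrophil markers were above 0 with a median of 1.49, at summed levels of 4.64 to 12.7 CPM in the knockout and 2.41 to 5.27 in wild type, and 0 passed. Of 22 interferon-response genes 20 were above 0 with a median of 0.42 and 0 passed. Of 14 acute-phase and vascular inflammation genes 12 were above 0 with a median of 0.32 and 1 rose, Lcn2. The knockout lay above wild type without overlap for 3, 6 and 6 genes of these lists, where 4.82% of all genes tested did so. Microglia (0 of 12, median 0.02) and border macrophages (0 of 5, median 0.06) had medians near 0. Interferon genes had a median of 0.22 without wild-type library 1.

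**Figure D5:**
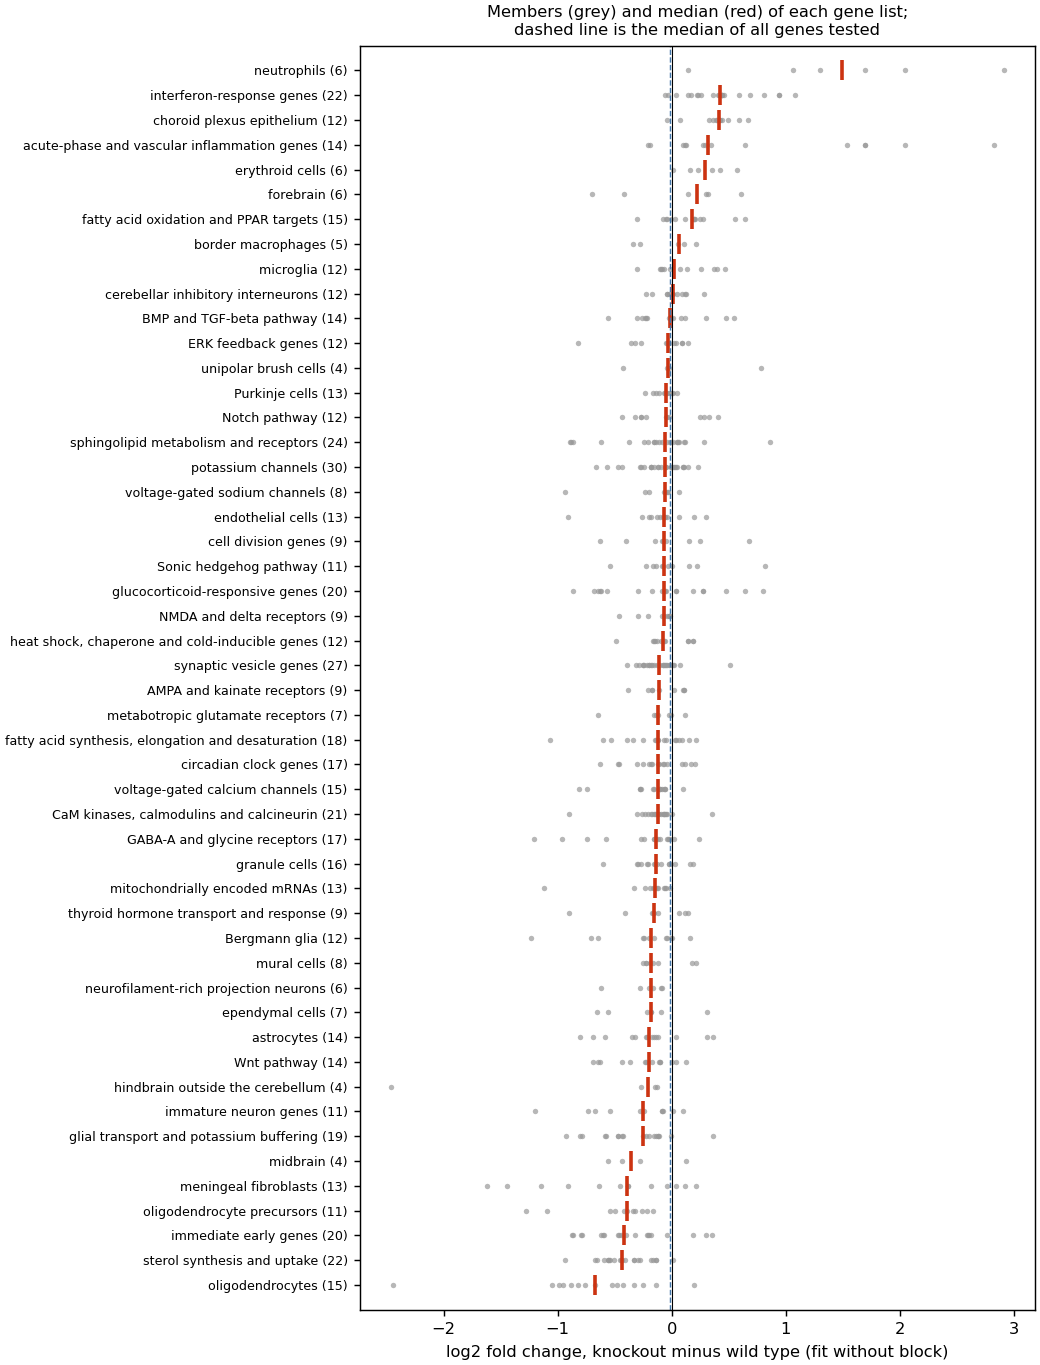
Log2 fold change (knockout minus wild type, fit without block) of the tested members of each of 50 gene lists (grey points), with the median of the list (red) and of all genes tested (dashed line); the number of tested members is in parentheses. Oligodendrocyte, sterol and immediate early lists lie lowest (medians -0.67, -0.44 and -0.42) and neutrophil, interferon and choroid plexus lists highest (1.49, 0.42 and 0.41). The choroid plexus median was -0.11 without wild-type library 1.

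The remaining genes that fell, named after their values were seen unless said otherwise, fit none of these groups. Kazn, a scaffold protein of cell junctions, fell by 0.59 ± 0.09, Zeb2, a transcriptional repressor needed in glia and neural crest, by 0.51 ± 0.08, and Tob2, an antiproliferative protein that recruits mRNA deadenylases, by 0.56 ± 0.08. Eps15, an adaptor of clathrin-mediated endocytosis, fell by 0.45 ± 0.08 from 247 to 291 CPM in wild type to 182 to 225 in the knockout. Car4, a membrane-bound carbonic anhydrase, fell by 0.63 ± 0.11, and Itm2a, which the rule named as the 1 of 13 endothelial markers that passed, by 0.90 ± 0.14. St5, a regulator of ERK signalling also named by the rule, fell by 0.58 ± 0.10. The ribosomal protein genes Rpl41 and Rpl29 fell by 0.50 ± 0.08 and 0.53 ± 0.09, and reads of their processed pseudogenes may be split between copies by the counting.

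In the fit without the block the smallest p-values without overlap belonged on the higher side to 1700047I17Rik2, Fam107a, Pnpla7, Xdh, Ifi27l2a, Lcn2, Acacb and Cep70, and on the lower side to Col1a1, Ednrb, Slc13a3, Calb2, Aqp4, St5, S1pr1 and Marcks. None of these 16 passed (edgeR adjusted p = 0.19 to 1). Of the 3 genes that do not appear among the 58, Ifi27l2a is an interferon-induced gene, Acacb makes the malonyl-CoA that limits fatty acid oxidation, and Cep70 is a centrosomal protein. Their log2 fold changes without the block were 1.75, 0.57 and 0.44.

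A pair of genes was read in 1 genotype only. Gm27199 (chromosome 5, 120419659 to 120431767), annotated as antisense, had 0 reads in all 3 knockout libraries and 16, 28 and 35 in wild type, at least 24.8-fold lower in the knockout against a floor of 3 reads over the group. It overlaps the start of Lhx5, a homeobox gene of Purkinje cells, only from 120431699 to 120431767. The counting is not stated to use strand, so reads within that short stretch cannot be told apart. Lhx5 itself was at 10.1, 8.43 and 10.7 CPM in the knockout and at 13.6, 13.1 and 11.5 in wild type. Alb, serum albumin, had 5, 38 and 27 reads in the knockout and 0 in wild type, at least 24.8-fold higher. That bound pools the knockout libraries, and the 5 reads of library 1 are near the floor. Alb is not among the 58 genes that passed. In the other regions Alb was read in wild type too, at up to 0.236 CPM, and at 0.178 to 1.92 CPM in the knockout.

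The last comparison asked whether the cerebellar difference departs from that in cortex and hippocampus. Fitted to all 14 libraries as the cerebellar fold change minus the mean of the other 2 regions, it called 0 of 24680 genes (0%, edgeR), with 625 genes at an unadjusted p under 0.05 where 1234 would be there by chance. limma with a random block for the number within a genotype called 0 as well, with 697 at an unadjusted p under 0.05. Without knockout cortex library 1 it called 12 genes, 1 higher and 11 lower, and without any other single library 0. No gene is therefore called particular to the cerebellum. The 3 smallest p-values were those of Kctd8, an auxiliary subunit of GABA-B receptors (-1.11 ± 0.21), the globin gene Hba-a2 (2.17 ± 0.47), whose reads may be shared with its near-identical copy, and 1700047I17Rik2 (2.30 ± 0.53), all with an edgeR adjusted p of 1. Kctd8 was at 18.9 to 22.8 CPM in the knockout cerebellum and at 22.9 to 30.6 in wild type, and in hippocampus the knockout libraries were at 4.99 and 5.37 and those of wild type at 2.47 and 3.07. 1700047I17Rik2 was at 3.80 to 7.88 CPM in the knockout cerebellum and at 0.837 to 3.19 in every library of the other regions.

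Set side by side, several of the genes named above had like values in the other regions and others did not, with no test of the single regions drawn on here. The log2 fold changes of Fam107a in the fit to 14 libraries were 0.89 in cortex and 0.87 in hippocampus, and those of Lcn2 were 2.69 and 2.47. Xdh had 1.01 and 0.79. Fads2 had 0.31 and -0.44, Tubb2b 0.21 and -0.31, Marcks -0.05 and -0.12, and S1pr1 -0.06 and -0.13. Other genes that fell in the cerebellum were lower in both regions, such as Per1 (-0.78 and -0.35), Sgk1 (-0.42 and -0.81) and Ptn (-0.43 and -0.43). Osbpl3, which rose in the cerebellum, had -0.38 and 0.17. Like and unlike values thus occurred among genes of both directions, and these genes are examples chosen after their values were seen. None of these genes passed the test of the difference between the cerebellum and the other regions (edgeR adjusted p = 1).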

How the data were processed

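RNA from cerebellum, cerebral cortex and hippocampus of mice was sequenced in bulk. The authors deposited read counts in 1 table, whole numbers per gene and library that were not normalized. Per the submitters' processing notes the tools were Trim Galore 0.6.4, cutadapt 2.10, STAR 2.7.3a and featureCounts 2.0.1, with the build GRCm38.p6 (mm10). The sources used here do not give whether the counting used strand or how it treated reads that map to several places, so antisense, overlapping and near-identical genes are uncertain. Of 48440 genes, 14880 had 0 reads in the 6 cerebellar libraries. Names and coordinates are from GENCODE M21 (GRCm38), matched for 99.2% of identifiers with the version ignored.

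Counts were filtered by edgeR's filterByExpr and scaled by TMM, and the robust quasi-likelihood test of edgeR 4.0.16 (R 4.3.3) compared the genotypes on the 6 cerebellar libraries, without and with the library number as a block. The test of cerebellum against the other regions used all 14 libraries and filtered on the 6 groups. Adjusted p-values are Benjamini-Hochberg values over all genes tested. DESeq2 1.42.0 and limma 3.58.1 were alternatives, and the edgeR fits were tested on simulated data. There the share of false calls was 7.8% without the block and 13% with it, both above the nominal 5%. Reads carry no molecular identifiers, so floors cover counting error only.

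Deviations from the genotype mean, correlated over 16354 genes, were 0.29, 0.79 and 0.40 between same-numbered libraries, all above the bound of 0.1. The crossed combinations of numbers 1 and 3 gave 0.37 and 0.50, so the correlations set number 2 apart and leave the pairing of 1 and 3 unresolved. The pairing therefore comes from the titles alone, and both fits are given.

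The rule for named genes took, in the blocked fit, at most 15 genes that passed in each direction, with a mean log2 CPM of at least 0 and the same direction in all 3 numbers. In a fit and direction with fewer than 3 passing genes it took the 8 smallest p-values without overlap, for the difference between regions the 3 smallest, for a list up to 5 members passing with the block or else the 2 most abundant (given only for lists the text turns on), and genes with 0 reads in 1 genotype and at least 5 in each library of the other. Gene lists, members and this rule were chosen with earlier results of these data known. They are described by counts and medians, with no test of a list.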

Additional observations from a re-analysis of the deposited data

How the results depend on the processing

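Without the block 0 genes passed in the cerebellum, also with DESeq2's size factors, with at least 1 CPM in 3 libraries and in a fit to all 14 libraries. DESeq2 called 21 genes, limma with library quality weights 3, edgeR with no filter beyond 1 read 3, and the fits without 1 library each 0 to 4. The replicate block called 58, and leaving out both libraries numbered 2 called 8. From the block's 58, DESeq2's size factors gave 61, limma 74, at least 1 CPM in 3 libraries 57, no filter beyond 1 read 557, DESeq2 148, numbers 1 and 3 crossed 196, and leaving out pair 1, 2 or 3 gave 89, 17 and 135. Of the 58 genes 51 passed with numbers 1 and 3 crossed, and 40, 13 and 44 without pair 1, 2 or 3; the 7 lost on crossing were Lcn2, Plin4, Fos, Nr4a2, Gsn, Tnc and Rpl41. All 58 kept their direction in each of these fits that tested them. The difference between regions called 0 genes, also with the genotype number as a replicate block in limma, and 0 to 12 with 1 library left out. The cause of these differences was not tested. The fits with and without the block, the added pairings and the fits without number 2 compare the same few libraries, at 20.1 to 28.5 M reads each, so depth limits mainly genes of a few reads. Of the list medians 27 of 1150 recomputed values moved by more than the spread between libraries. That spread includes the libraries that stood apart, so it is wide for lists that follow them and the count does not show stable medians. The oligodendrocyte median, for example, went from -0.67 to 0.01 without wild-type library 2 and still lay within it.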

Other observations

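Several genes separated single libraries rather than genotypes. They were chosen after their values were seen, by asking which of 16354 genes at a mean of at least 1 log2 CPM lay at least 3-fold above or below all other cerebellar libraries (CPM + 0.25) in 1 library or in a pair. No gene did so for the 3 knockout libraries together against the 3 wild-type libraries. Knockout library 3 was above all others in genes of striated muscle: Ttn, the giant sarcomere protein titin, was at 245 CPM there and at 26.4 to 52.5 in the other 5. Atp2a1, the calcium pump of fast muscle, was at 18.5 against 0.928 to 1.23 and Acta1, skeletal muscle actin, at 12.2 against 1.13 to 2.12. Wild-type library 1 was below all others in 34 genes, among them Ttr, Folr1, Kl, Aqp1 and Sostdc1 of the choroid plexus.

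A pair of genes divided the wild-type libraries along their numbers in all 3 regions. Gm15446 (chromosome 5, 109923400 to 109943936) was at 24.9 CPM in wild-type cerebellum 1 and 26.8 in wild-type cerebellum 2, but at 0.474 in wild-type cerebellum 3. In the other regions the wild-type libraries numbered 2 were at 15.6 in cortex and 28.6 in hippocampus, and those numbered 3 at 0.796 and 0.354. All 7 knockout libraries lay between 0.218 and 0.66. The histone gene Hist1h4m (chromosome 13, 21811746 to 21812147), which has near-identical copies, ran the same way, with 6.78 to 8.25 CPM in wild-type libraries 1 and 2 of any region, 0.474 to 0.796 in those numbered 3 and 0.317 to 0.565 in the knockout. Wild-type library 3 was thus like the knockout in these genes in every region measured, and neither passed in the fit to all 6 cerebellar libraries. Both passed in edgeR without wild-type library 3.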
